A study of Mus musculus with 11 samples.

Results

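The 25 ADAM, ADAMTS and ADAMTS-like genes measured in mouse RPE/choroid were examined 3 months after nanosecond laser treatment. They are the rows of the count table whose symbol begins with Adam, Adamts or Adamtsl followed by a digit, 25 of 14602 genes, and comprise 12 Adam genes, 8 Adamts genes and 5 Adamtsl genes. Each library was made from the retinal pigment epithelium (RPE) and choroid of C57BL/6J mice, an inbred wildtype strain. The laser treated group (n = 5) was given 2RT nanosecond laser pulses when 9 months old and was collected at 12 months, and the naïve control group (n = 6) was untreated and collected at the same age. Sex is not given, and the treated spots cover only a small area of the collected tissue. Nothing states whether a library came from 1 animal or several, so p-values set the group difference against the spread between these libraries.

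ADAM proteins are membrane-anchored metalloproteinases that cut the extracellular part off other membrane proteins, releasing growth factors, cytokines and adhesion molecules. ADAMTS proteins are secreted relatives that carry thrombospondin repeats and cleave proteoglycans and procollagens of the extracellular matrix. ADAMTS-like proteins keep the repeats, lack the protease domain, and several of them bind fibrillin microfibrils, which in the posterior eye form part of the elastic layer of Bruch's membrane and the scaffold around choroidal vessels.

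In these libraries 1 member stood out, Adamtsl4, an ADAMTS-like gene whose human counterpart is mutated in inherited lens dislocation. It had the highest mean level over all libraries, was level with Adam9 in controls, and was higher in every laser treated library than in any naïve control, by 1.8-fold, although this did not pass adjustment over all genes. No other member had an unadjusted p under 0.05. The Adam genes were the most evenly expressed, and the Adamts genes varied widely between libraries of the same group. Apart from Adamtsl5, the remaining Adamtsl genes were low. Since these are bulk samples, fewer cells of a type and less RNA per cell cannot be told apart.

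Total counts ranged from 25700881 to 36766020 in naïve control and from 32094560 to 38755994 in laser treated libraries. No pair of libraries was identical, and the common biological coefficient of variation was 0.58. All 10 RPE markers were measured, with summed CPM (read counts scaled to a common library size) of 94800 to 132000 in controls and 77800 to 129000 after laser, and all 8 photoreceptor markers were also present, at 5440 to 20700 CPM and 3620 to 18100 CPM. Of 4 Schwann cell markers, 3 had an unadjusted p under 0.05, all higher after laser (Mbp, Mag and Sox10), beside 8.24% of all genes, and 2 did with the GC trend removed, beside 3.69%. The most abundant of the 4, Pmp22, had a log2 fold change of -0.05 ± 0.14, and the 4 summed to 388 to 614 CPM in controls and 580 to 1110 CPM after laser. The libraries also carry a label, R1 or R2, whose meaning is not given, with 3 controls and 2 laser treated libraries under R1 and 3 of each under R2.

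Sequence is shown for the member with the clearest difference and for the one whose reads lay on few of its exons. Adamtsl4 lies on the minus strand at chr3:95676201-95687917 (GRCm38) and has 18 exons, and the first 150 bases of exon 5, its longest fully coding exon, are at chr3:95684090-95684239. Capitals mark G and C, 59.3% of the bases, because GC content bears on the size of the difference described later.
Adamtsl4 exon 5: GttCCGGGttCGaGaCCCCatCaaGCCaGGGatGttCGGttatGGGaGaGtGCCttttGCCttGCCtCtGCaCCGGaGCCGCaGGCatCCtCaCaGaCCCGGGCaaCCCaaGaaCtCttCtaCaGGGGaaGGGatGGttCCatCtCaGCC
Adam7 lies on the minus strand at chr14:68497336-68533741 and has 23 exons, and the 235 bases at chr14:68509737-68509971 run from intron 15 into exon 16. Capitals mark the 120 bases of exon 16, and the 115 bases in lower case belong to the intron, where the annotated transcript Adam7-202 begins.
Adam7 intron 15 and exon 16: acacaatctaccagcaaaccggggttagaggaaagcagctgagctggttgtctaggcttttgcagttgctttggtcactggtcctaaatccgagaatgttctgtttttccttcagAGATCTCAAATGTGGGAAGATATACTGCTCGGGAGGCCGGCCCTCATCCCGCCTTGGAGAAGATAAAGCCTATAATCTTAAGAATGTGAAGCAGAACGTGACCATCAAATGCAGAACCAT

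To establish which members make up the family in this tissue, levels were compared as CPM per kilobase of exon, averaged over the 11 libraries. Adamtsl4 had the highest level, 32.0 ± 11.9 (SD, n = 11), followed by Adam9 at 23.1 ± 4.87, and Adamtsl4 exceeded Adam9 in 8 of 11 libraries. This first rank came from the laser treated libraries, all 5 of which had Adamtsl4 above Adam9 (means of 42.2 and 22.5), while in controls it was above in 3 of 6 (means of 23.5 and 23.7). Adam9, a sheddase mutated in a human cone-rod dystrophy, exceeded the next gene in all 11 libraries. That gene was Adam7, best known from the epididymis, at 6.66 ± 1.53, and it exceeded Adam10 in 10 of 11. Below this the order was not fixed, since each gene exceeded the next in only 4 to 8 of 11 libraries. Adam10, the sheddase that starts Notch signalling and cuts the amyloid precursor protein, had a level of 4.26 ± 0.895, and Adam15 and Adam17 stood at 3.53 and 3.41. Adamts1 led the Adamts genes at 2.7 ± 1.87, and Adamtsl5 was second among the Adamtsl genes at 1.84 ± 0.863. The lowest level was that of Adamts9, 0.0422 ± 0.0477.

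**Figure D1:**
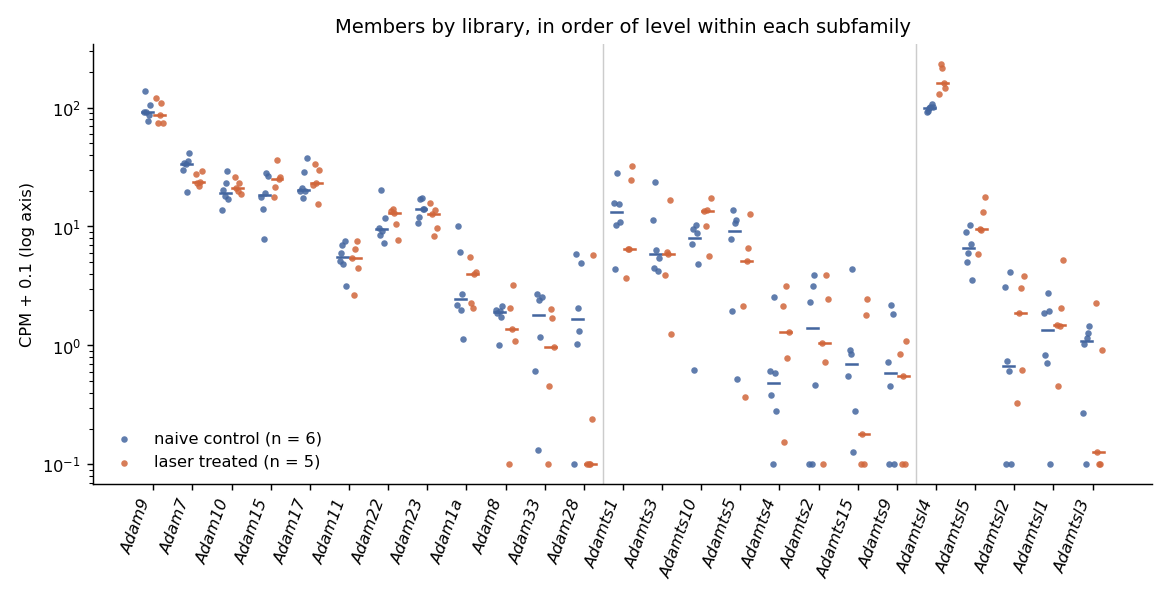
CPM plus 0.1 (log axis) of the 25 members in each naïve control (blue, n = 6) and laser treated library (orange, n = 5), ordered by level within each subfamily, with group medians as lines and points at 0.1 for libraries with no count. Adamtsl4 is the member whose laser treated libraries, from 131 to 232 CPM, all lie above its controls, from 92.0 to 106 CPM.

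Across the family, no member had an adjusted p under 0.05 by edgeR's quasi-likelihood test, as for all 14602 genes, of which 0.0% did. By unadjusted p under 0.05, 1 member of 25 was higher after laser, beside 8.24% of all genes, and 0 were lower, beside 7.68% of all genes. Groups did not overlap for 1 member, beside 1.4% of all genes in the higher direction. Without a threshold, 11 members were higher and 14 lower after laser, beside 48.5% of all genes that were higher. The median log2 fold change of the members was -0.07 and that of all genes was -0.02, so neither the count nor the median set the family apart from the rest of the table.

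By subfamily, 4 of 12 Adam genes were higher and 8 lower, and their log2 fold changes had a median of -0.12 and a range of -1.06 to 0.42. Of the Adamts genes, 3 of 8 were higher and 5 lower, with a median of -0.2 and a range of -0.86 to 1.1. That median was 0.19 among R2 and -0.82 among R1 libraries, and with 1 library left out it ranged from -0.58 without laser treated 4 to 0.32 without naïve control 4. It was also above 0 without laser treated 1, 2 or 3 (0.02, 0.07 and 0.06). Of the Adamtsl genes, 4 of 5 were higher and 1 lower, with a median of 0.68 and a range of -0.38 to 0.85. The Adamtsl median rested on low genes and on 1 library, being -0.0029 without laser treated 5. It was also 0.15 when log2(TPM + 1) from the transcript files was used. The difference between subfamilies was described and not tested, because members are not replicates of a condition.

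**Figure D2:**
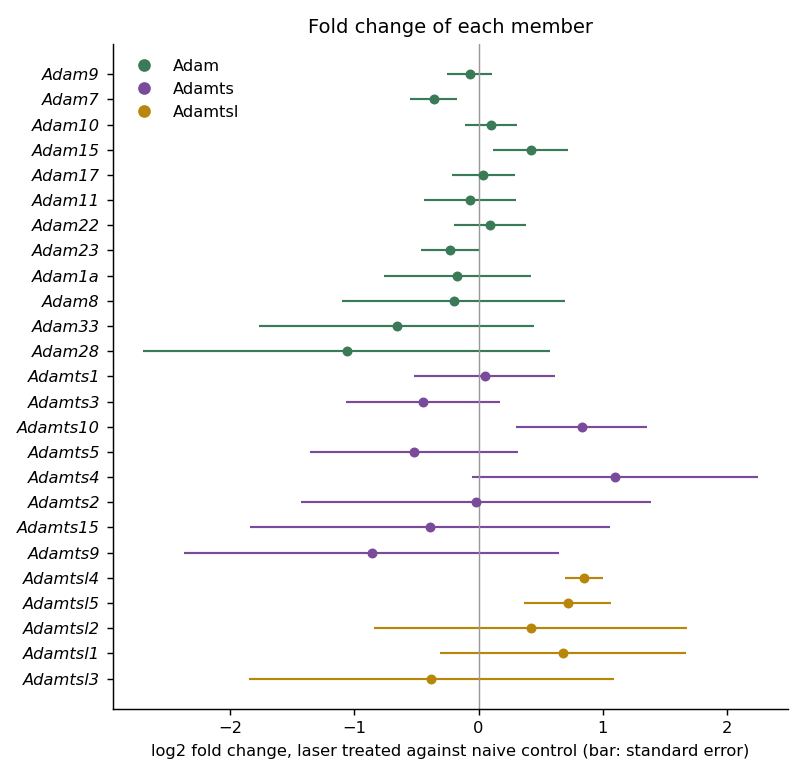
Log2 fold change between laser treated and naïve control libraries for each member (points, coloured by subfamily) with its standard error (bars), from edgeR over all 14602 genes. The bars of most members reach or lie close to 0, and Adamtsl4 has the smallest standard error, 0.15, beside a log2 fold change of 0.85.

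Adamtsl4 had 92.0, 99.6 and 106 CPM as its lowest, median and highest value in naïve controls, and 131, 232, 216, 161 and 145 CPM in laser treated libraries 1 to 5. All laser treated libraries lay above all controls, and the laser treated values spread more widely (SD 44.4) than those of the controls (SD 5.25). The log2 fold change was 0.85 ± 0.15 (SE), with an unadjusted p of 5.73e-05 and an adjusted p of 0.172 by edgeR's quasi-likelihood test. DESeq2 gave an adjusted p of 0.000548 for the same fold, in a fit that called 6.68% of the genes it adjusted, and was the only one of 26 alternatives in which Adamtsl4 passed. With all laser treated libraries above all controls, the direction within each label and with 1 library left out was fixed by that separation. The log2 fold change was 0.97 among R1 and 0.78 among R2 libraries, and 0.73 to 0.94 with 1 library left out.

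The GC content of the Adamtsl4 transcript, 60.1%, is the highest among the members together with that of Adam11. When each library's trend of counts on GC content was removed, the log2 fold change was 0.60, with an unadjusted p of 0.00204 and an adjusted p of 0.723 by the same edgeR test. In that fit 3.69% of all genes had an unadjusted p under 0.05 and were higher, and 3.17% were lower. The highest Schwann cell marker sum, 1110 CPM, was in laser treated 1, which had the lowest Adamtsl4 value of its group, and the part of that cell type in the result was not tested.

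The transcripts assembled for each library show where along Adamtsl4 the difference lay. They come from the same reads as the counts and are not separate support. Of 18 exons of Adamtsl4, 7 were covered over at least 50% of their bases in all 11 libraries, and the median TPM of the fragments on them was higher after laser for all 7. These 7 are not separate observations, since exons 11 and 12 had the same medians, 3.08 in controls and 16.95 after laser. On exon 5, part of which is printed above, TPM ranged from 12.63 to 20.07 in controls, with a median of 16.08, and from 19.01 to 45.0 after laser, with a median of 31.36. On exon 11, which is 186 bases long and also coding, it ranged from 1.02 to 7.46 in controls and from 7.34 to 19.33 after laser. Both exons overlapped between groups at their edges. On the last exon, which is mostly untranslated, controls lay between 41.2 and 46.35 and laser treated libraries between 18.73 and 98.63.

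Adamtsl5, which also binds fibrillin microfibrils, had a lowest, median and highest value of 3.48, 6.48 and 10.1 CPM in controls, and 5.73, 9.51, 9.22, 13.2 and 17.7 CPM in laser treated libraries 1 to 5. The 2 groups overlapped, with laser treated 4 and 5 above all controls. The log2 fold change was 0.72 ± 0.35, with an adjusted p of 0.333 by edgeR, and its unadjusted p fell under 0.05 without naïve control 1, naïve control 4 or laser treated 1. It also did by limma-trend on log2 TPM with pseudocounts of 1 and 0.1, at log2 fold changes of 1.08 and 1.19 (adjusted p 0.19 and 0.196). Within R1 the log2 fold change by edgeR was 0.25 and within R2 0.98.

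Adamtsl2, mutated in human geleophysic dysplasia, was not counted in 2 controls, whose highest value was 4.04 CPM with a median of 0.579, and had 0.227, 1.79, 2.94, 0.516 and 3.7 CPM after laser. Its groups overlapped throughout, with a log2 fold change of 0.42 ± 1.26. Adamtsl1 and Adamtsl3 stayed at or under 5.14 and 2.17 CPM in every library, with log2 fold changes of 0.68 ± 0.99 and -0.38 ± 1.47. Within R1 the direction of Adamtsl1 and Adamtsl2 was the opposite, -0.24 and -0.25, while within R2 they gave 0.94 and 0.68. Thus the direction shared by 4 of the 5 Adamtsl genes held within both labels for Adamtsl4 and Adamtsl5 only. For Adamtsl4 this followed from its lack of overlap between groups.

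The share of each subfamily in the summed level per kilobase of the members showed where this placed the family as a whole. The Adamtsl share had a lowest, median and highest value of 28.5%, 33.7% and 35.4% in controls and was 37.9%, 57.6%, 53.0%, 42.1% and 43.8% after laser, so that the groups did not overlap. Adamtsl4 alone made up 27.0% to 32.0% in controls and 36.0% to 55.3% after laser. The Adam share ranged from 51.3% to 67.5% and from 38.8% to 57.7%, and the Adamts share from 4.02% to 13.3% and from 3.55% to 11.5%, both with overlap. The summed level itself was 71.5 to 82.1 in controls and 86.8 to 102 after laser, without overlap, but without Adamtsl4 it was 49.6 to 59.9 and 44.6 to 59.8. Levels from TPM gave an Adamtsl share of 22.8% to 30.6% and 30.1% to 49.4%, which overlapped.

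**Figure D3:**
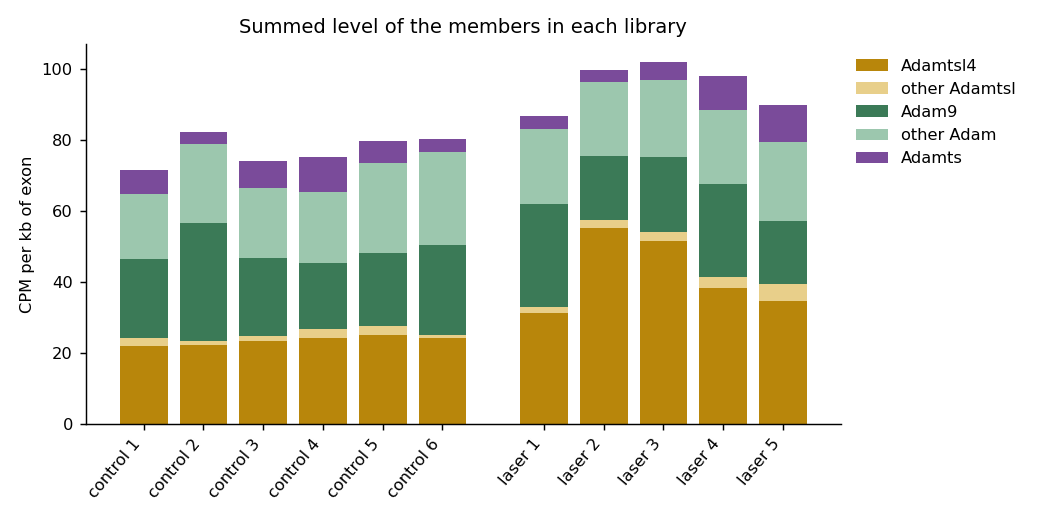
Stacked bars of the members' level in each library, in CPM per kilobase of exon, split into Adamtsl4, other Adamtsl genes, Adam9, other Adam genes and Adamts genes. The laser treated bars, from 86.8 to 102, are taller than the control bars, from 71.5 to 82.1, while the height above the Adamtsl4 segment is 49.6 to 59.9 in controls and 44.6 to 59.8 after laser.

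Among the Adam genes, Adam9 had a lowest, median and highest value of 76.4, 90.9 and 137 CPM in controls and 120, 74.1, 87.0, 109 and 73.6 CPM after laser. Naïve control 2 was the highest library, and the groups overlapped over nearly their whole range. The log2 fold change was -0.07 ± 0.18, with an adjusted p of 0.894 by edgeR, and it was 0.06 with the GC trend removed. Adam10 had 13.6, 19.1 and 29.3 CPM as lowest, median and highest control value and 26.1, 21.1, 19.6, 23.0 and 18.8 CPM after laser. Every laser treated value of Adam10 lay within the range of the controls, with a log2 fold change of 0.10 ± 0.21.

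Adam7 was the Adam gene with the smallest unadjusted p. Its lowest, median and highest control values were 19.3, 33.4 and 41.1 CPM, and its laser treated values were 27.3, 23.3, 21.7, 23.6 and 28.9 CPM. All controls but naïve control 4 lay above all laser treated libraries. The log2 fold change was -0.36 ± 0.19, with an adjusted p of 0.371 by edgeR, and the unadjusted p of 0.0765 fell under 0.05 when naïve control 4 was left out. With the GC trend removed the log2 fold change was -0.06, the transcript having a GC content of 42.6%.

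The transcripts assembled for Adam7 covered few of its exons. Of 23 exons, exon 16 and exon 23 were covered in all 11 libraries, exon 22 in 3, and exons 1 to 15 in none. The fragment on exon 16 extended 101 to 235 bases into intron 15, which is 890 bases long, and in 8 of 11 libraries it ran past the 115 intron bases printed above. TPM on exon 16 ranged from 4.54 to 12.77 in controls and from 6.17 to 9.57 after laser, and on exon 23 from 9.57 to 21.72 and from 9.85 to 14.73. Both ranges after laser lay within those of the controls. Low coverage was not particular to Adam7, which had a median of 2 of 23 exons covered. The median was 3 of 22 for Adam9, 1 of 26 for Adam11 and 2 of 30 for Adam22, and 14 of 18 for Adamtsl4. The coverage therefore does not by itself tell which Adam7 transcript was counted.

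Adam28, a gene of lymphocytes and some epithelia near Adam7 on the same strand of chromosome 14 (chr14:68606027-68655842), had the largest absolute log2 fold change of the Adam genes, -1.06 ± 1.64. Its lowest, median and highest control values were 0, 1.59 and 5.76 CPM, and laser treated libraries 1 to 3 had none, laser treated 4 had 0.143 and laser treated 5 had 5.71 CPM. The standard error exceeded the difference, and the adjusted p was 0.826 by edgeR. Without laser treated 5 the log2 fold change was -5.94 with an unadjusted p under 0.05, a value that depends on the prior count because the remaining laser treated libraries are near 0.

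The other Adam genes showed log2 fold changes of -0.66 to 0.42, and none had an unadjusted p under 0.05. Adam15, found in endothelium, and Adam17, the sheddase of tumour necrosis factor, had 0.42 ± 0.30 and 0.04 ± 0.25. Adam11, Adam22 and Adam23, which have no protease activity and bind LGI proteins in neural tissue, had -0.07 ± 0.37, 0.09 ± 0.29 and -0.23 ± 0.23. Adam8, a gene of leukocytes, Adam33 and Adam1a, a sperm gene, were low, at or under 3.15, 2.6 and 10.0 CPM in every library. Of the 7508 exon bases of Adam1a, 7432 also belong to Gm42878, Mapkapk5 or Tmem116, and 1263 exon bases of Adam15 lie opposite an antisense gene, so that reads there cannot be told apart in counting whose strand setting is not given.

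The Adamts genes were the most uneven between libraries. The coefficient of variation over the 11 libraries had a median of 90.3% in the Adamts genes, 86.7% in the Adamtsl genes and 31.9% in the Adam genes, beside 34.6% for all genes. All genes with a mean of 3 to 20 CPM had a median of 41.7%, and the 9 members in that range had 51.2%. Of these, Adamts1, Adamts3, Adamts5 and Adamts10 had 69.3%, 82.5%, 76.3% and 51.2%. Adamtsl5 had 46.8%, and Adam1a, Adam11, Adam22 and Adam23 had 69.7%, 30.6%, 33.2% and 22.1%. At 1 to 3 CPM the median was 92.4% for members and 75.7% for all genes, and under 1 CPM it was 110% and 91.9%. At least 1 library was without a count for 4 of 8 Adamts, 3 of 5 Adamtsl and 3 of 12 Adam genes, together 40.0% of members beside 12.3% of all genes.

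Adamts1, a protease of aggrecan and versican, had 4.3, 13.2 and 28.0 CPM as lowest, median and highest control value, and 3.56, 6.33, 6.42, 24.5 and 32.0 CPM after laser. Laser treated 4 and 5 stood with naïve control 4 at the top and the other laser treated libraries near the bottom, so the log2 fold change of 0.05 ± 0.57 was a mean over separate values. Adamts3, which trims the amino end of procollagens and activates vascular endothelial growth factor C, had 4.09, 5.8 and 23.4 CPM in controls and 3.79, 5.98, 5.82, 16.7 and 1.14 CPM after laser. Its log2 fold change was -0.45 ± 0.62, and without naïve control 3, the highest library, it was 0.08.

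Adamts10, mutated in human Weill-Marchesani syndrome and active on fibrillin microfibrils, had a lowest, median and highest value of 0.517, 7.86 and 10.2 CPM in controls and 13.5, 9.92, 13.7, 5.56 and 17.3 CPM after laser. Laser treated 1, 3 and 5 lay above all controls. The log2 fold change was 0.83 ± 0.53, with an adjusted p of 0.492 by edgeR. It lay between 0.57 and 1.6 in the 26 alternatives, which reuse these same libraries. The lowest, 0.57, was without naïve control 3, the control with 0.517 CPM. Adamts4, an aggrecanase, had the largest log2 fold change of the subfamily, 1.10 ± 1.15, from 0, 0.386 and 2.47 CPM in controls and 2.04, 0.0544, 3.08, 0.688 and 1.2 CPM after laser. The groups overlapped, and without naïve control 4 the log2 fold change was 2.24, and without laser treated 3 it was 0.60.

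Adamts5, the other main aggrecanase, lies near Adamts1 on chromosome 16 and had a log2 fold change of -0.52 ± 0.84, from 0.423 to 13.6 CPM in controls and 0.272 to 12.7 CPM after laser. Adamts2, a procollagen protease, Adamts15 and Adamts9, both proteases of versican, had -0.02 ± 1.41, -0.39 ± 1.45 and -0.86 ± 1.51. Counting how many of the 8 Adamts genes had each library among its 3 highest, naïve control 4 and laser treated 5 had 5 each, laser treated 4 had 4, and naïve control 2, naïve control 6 and laser treated 2 had 0. Naïve control 4 and laser treated 5 also had the highest sums of 6 melanocyte markers, 3100 and 3110 CPM, beside 1450 to 2070 CPM in the other 9 libraries. Laser treated 4 was among those 9, at 1650 CPM. The melanocyte list was picked from several marker lists after these values were seen. Because the RPE holds melanin too, this sum cannot by itself tell melanocytes from RPE. The part of any cell type in the spread of the Adamts genes was not tested.

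**Figure D4:**
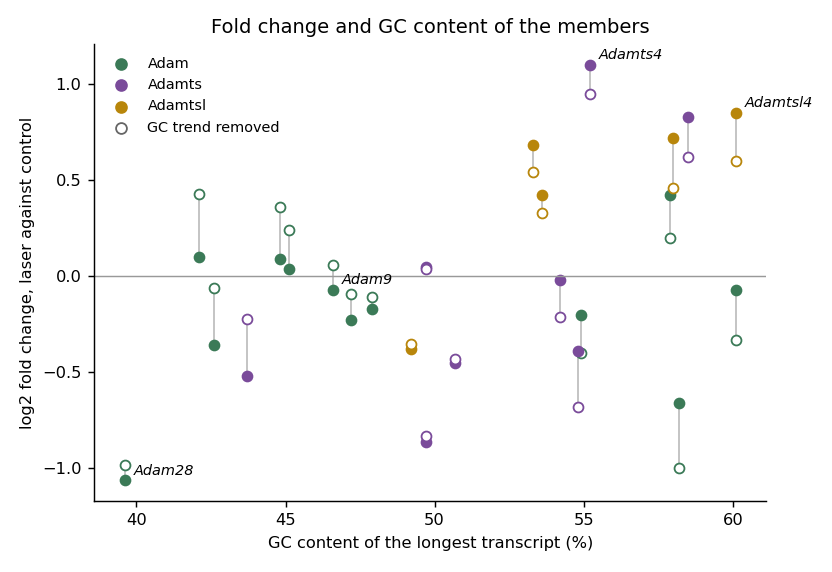
Log2 fold change of each member against the GC content of its longest transcript, before (filled) and after (open) each library's GC trend was removed, with a grey line joining the values of a gene. Members with low GC content such as Adam10 (from 0.10 to 0.43) move up and members with high GC content such as Adamtsl4 (from 0.85 to 0.60) move down.

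The subfamilies differed in base composition, with a median GC content of 46.9% for Adam, 52.5% for Adamts and 53.6% for Adamtsl genes, beside 49.8% for all genes. With the GC trend removed, the median log2 fold changes were -0.07, -0.22 and 0.46, with 5, 3 and 4 genes higher, and Adamtsl4 was still the only member with an unadjusted p under 0.05. The same step moved the split over all genes from 7081 higher and 7521 lower to 7884 higher and 6718 lower.

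The proteins that restrain, activate and receive these proteases were taken as 9 lists with 72 measured genes. None had an adjusted p under 0.05 by edgeR, 17 of 72 had an unadjusted p under 0.05 and were higher after laser, and 0 were lower, beside 8.24% and 7.68% of all genes. With the GC trend removed, 7 of 72 were under that threshold, all higher and all among the 17, beside 3.69% of all genes. In all, 56 of 72 were higher and 16 lower, and their median log2 fold change was 0.26. Of all genes 48.5% were higher, with a median of -0.02. Removing the GC trend gave 55 higher and 17 lower at a median of 0.21, beside 7884 higher and 6718 lower of all genes.

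Of the inhibitors, 4 of 5 were higher. Timp3, the inhibitor of Adam17 and several ADAMTS proteases that is mutated in Sorsby fundus dystrophy, had the highest level of its list, 660 CPM per kilobase, with 4470 to 6560 CPM in controls, 4250 to 6630 CPM after laser and a log2 fold change of -0.01 ± 0.13. Timp2 had 499 to 742 CPM in controls and 644 to 855 CPM after laser, with a log2 fold change of 0.27 ± 0.12 and an adjusted p of 0.286 by edgeR. All 9 tetraspanins and iRhom partners, which carry Adam10 and Adam17 to the cell surface, were higher, and 8 of 9 with the GC trend removed. Tspan10, with the highest level of that list, had 408 to 643 CPM and 597 to 769 CPM, with a log2 fold change of 0.44 ± 0.13 and an adjusted p of 0.177, and Frmd8, which stabilises the iRhom complex, had 0.77 ± 0.32. DESeq2 gave Tspan10 an adjusted p under 0.05, and in the other lists it did so for Bcan and Tnfrsf1a only. That fit called 6.68% of all the genes it adjusted. With the GC trend removed, 0 of 9 in this list were under the unadjusted threshold in edgeR, with log2 fold changes of 0.27 for Tspan10 (adjusted p 0.752) and 0.57 for Frmd8 (adjusted p 0.735).

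Of 4 proprotein convertases, which remove the prodomain of the proteases, 3 were higher, and Furin had the highest level and the smallest p, with a log2 fold change of 0.37 ± 0.16. Of 26 measured substrates shed by Adam10 and Adam17, 16 were higher and 10 lower, with a median of 0.04. Under the unadjusted threshold were 3 of 26, beside 8.24% of all genes, and 2 of 26 with the GC trend removed, beside 3.69%. The 3 were Tnfrsf1a, a receptor of tumour necrosis factor (0.58 ± 0.16, adjusted p 0.174 by edgeR), Notch1 (0.85 ± 0.30) and Cx3cl1, the chemokine that binds microglia and macrophages (0.56 ± 0.21). Prnp, with the highest level of the list, had -0.06 ± 0.16.

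Of 8 measured proteoglycan substrates and partners, 6 were higher. Bcan, a neural proteoglycan cleaved by Adamts4, had 29.6 to 60.2 CPM in controls and 38.7 to 231 CPM after laser, with a log2 fold change of 1.14 ± 0.38. Hapln2, a link protein of myelinated axons, had 0.19 to 0.852 CPM and 0 to 9.29 CPM (2.96 ± 1.05), and Hapln3 had 1.37 ± 0.55. Thbs1, with the highest level, had 0.13 ± 0.23. Of the 4 Lgi ligands, all were higher, 3 of 4 with the GC trend removed. Lgi4, the Schwann cell ligand of Adam22, had the highest mean level over all libraries, a rank that came from the laser treated libraries. Its mean was 3.79 CPM in controls and 9.65 CPM after laser, beside 3.94 and 4.44 CPM for Lgi3. Lgi4 had 2.45 to 5.83 CPM and 6.31 to 12.3 CPM (1.35 ± 0.35, adjusted p 0.172 by edgeR). Its groups did not overlap, as for 1.39% of the 72 list genes beside 1.4% of all genes in that direction. Bcan, Hapln2 and Lgi4 were thus higher beside the Schwann cell and myelin markers given above, and the part of those cells in these values was not tested.

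Of 13 measured microfibril and elastic fibre genes, which hold the partners of ADAMTS-like proteins, 11 were higher and 2 lower, at a median of 0.44 on the log2 scale, and 10 were higher with the GC trend removed. Of these, 5 of 13 were under the unadjusted threshold, beside 8.24% of all genes, and 1 of 13 with the GC trend removed, beside 3.69%. That 1 was Fbln5, with a log2 fold change of 0.39 ± 0.17, and 0.51 with the trend removed. The others of the 5, Loxl1, Efemp2, Ltbp4 and Ltbp3, had 0.20, 0.33, 0.60 and 0.29 with the trend removed. Loxl1, which cross-links elastin and has the highest level of the list, had 70.8 to 116 CPM and 104 to 148 CPM, with a log2 fold change of 0.44 ± 0.15 and an adjusted p of 0.197 by edgeR. Efemp2, needed for elastic fibre assembly, had 0.46 ± 0.17, and Ltbp4 and Ltbp3, which bind latent TGF-beta to microfibrils, had 0.82 ± 0.35 and 0.50 ± 0.22. Pofut2, which puts the sugar on thrombospondin repeats that ADAMTS and ADAMTS-like proteins need for secretion, had 0.41 ± 0.14 with an adjusted p of 0.212, while B3galtl, the next enzyme of that step, had 0.01 ± 0.18. The related gene Thsd4, also called Adamtsl6, had 0 to 0.948 CPM and 0.462 to 2.92 CPM, with 1.73 ± 1.05.

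**Figure D5:**
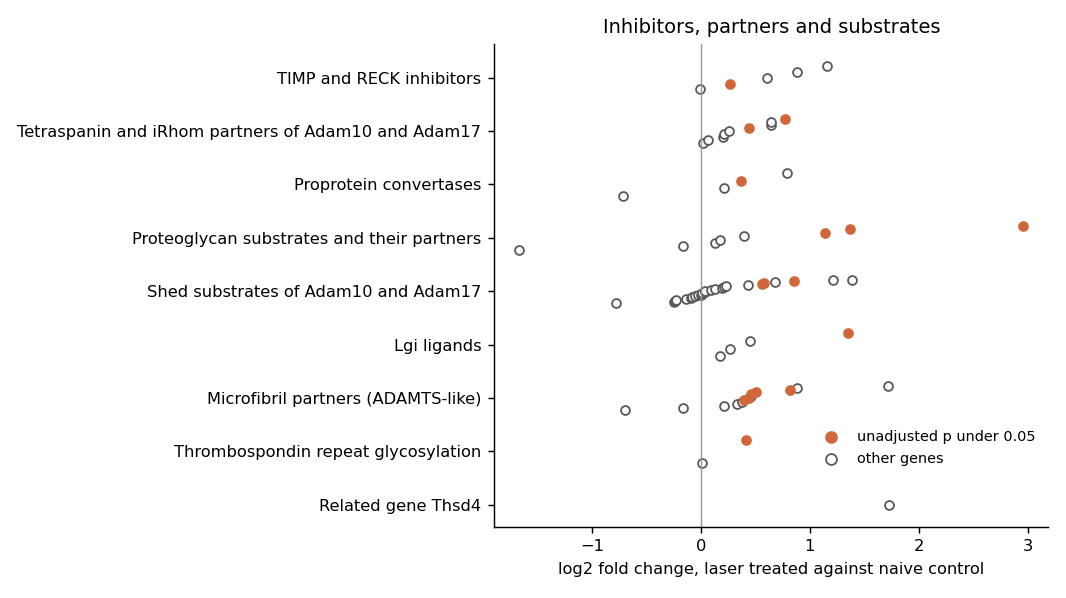
Log2 fold change between laser treated and naïve control libraries for the 72 measured genes of the 9 lists, 1 row per list, with genes whose unadjusted p was under 0.05 filled. All 17 filled points lie to the right of 0.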

How the data were processed

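RPE/choroid RNA was preamplified with a SmartSeq v4 kit and made into NexteraXT libraries. Raw counts per gene, neither normalized nor pooled, were deposited by the authors in 1 table. Per the submitters' processing notes the tools were bcl2fastq 2.18.0.12, Trim Galore, STAR 2.5.3a, featureCounts 1.5.3, StringTie 1.3.3 and edgeR 3.22.3, on mm10/GRCm38. The table had been filtered, since its lowest gene total is 120 counts, so members below that filter were not seen. The authors deposited beside the counts a log2 fold change, a log2 abundance, a score (F statistic), and p-value and FDR columns of their own comparison, and none of these were used. StringTie transcripts with coverage, FPKM and TPM, all of single exons, were deposited by the authors for each library, and TPM was used for exons and as an alternative level. The paper gives 6 samples per group, and 5 laser treated libraries were analysed here. Columns of samples left unused numbered 0.

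GENCODE M21 gave the positions on GRCm38, 13045 by Ensembl identifier, 1215 by older symbol and 10 by symbol, with 332 not matched, and all 25 members matched by identifier. Laser treated was compared with naïve control by edgeR 4.0.16 in R 4.3.3 with TMM, filterByExpr (0 genes removed), the robust form of its quasi-likelihood test, and Benjamini-Hochberg adjusted p-values over 14602 genes, at 0.05. CPM used TMM library sizes. A standard error (SE) follows each log2 fold change after ±. Levels divide counts by the union of exons. Alternatives used DESeq2 1.42.0, limma 3.58.1 (voom with quality weights, and limma-trend on log2 TPM with pseudocounts of 1 or 0.1), upper quartile scaling, other filters, loess trends of span 0.3 on GC content or length removed, the replicate number as a block, the label R1 or R2, and each library left out. The methods were tested on simulated data.

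Members and lists were chosen with earlier results of these data known. Named members are those with an unadjusted p under 0.05, the 3 of each subfamily with the highest level and the 1 with the largest absolute log2 fold change. From each list, up to 4 genes by smallest p and the gene with the highest level were named. Fbln5 was named in addition, for its value with the GC trend removed. The Schwann cell markers, Lgi4's lack of overlap, the libraries ranked for Adamts genes, and the melanocyte markers beside them were singled out after their values were seen. 1 marker gene and 1 overlapping gene are not reported here. Python 3.11.15 with pandas 2.3.3 made the tables.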

Additional observations from a re-analysis of the deposited data

Results flagged for a closer look

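Of 30 groups of values of named members, subfamily shares and summed level tested for a single library set apart from the rest of its group, 3 were, where chance gives about 5% of groups. Adam28 had 5.71 CPM in laser treated 5, and the other laser treated libraries had 0 to 0.143 CPM. Adamts3 had 23.4 CPM in naïve control 3, and the other controls had 4.09 to 11.3 CPM. Adamts4 had 2.47 CPM in naïve control 4, and the other controls had 0 to 0.51 CPM. All 3 genes are low, and a different library was set apart in each.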

How the results depend on the processing

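With 26 alternatives, the count of members with an adjusted p under 0.05 was 0 except with DESeq2, where it was 1 (Adamtsl4, unadjusted p 2.19e-07). The count with an unadjusted p under 0.05 that were higher was 1. It was 2 with log2 TPM at either pseudocount (Adamtsl4 and Adamtsl5), and 1 to 2 with 1 library left out. The count that were lower was 0, and 1 with the R1 libraries alone, and 0 to 1 with 1 library left out (Adam7 without naïve control 4, Adam28 without laser treated 5). The replicate block gave 1 lower member, Adamts5, but replicate numbers did not pair the libraries: same-numbered libraries correlated at -0.0435 to 0.327 in their deviations, and 2 of 5 controls correlated best with their own number. The Adamtsl median of 0.68 was 0.15 with log2(TPM + 1) and -0.0029 to 0.84 with 1 library left out.

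The following log2 fold changes of the 11 named members changed sign, none with an adjusted p under 0.05. Of the 14 other members, 12 changed sign in at least 1 alternative, likewise without an adjusted or unadjusted p under 0.05. Adam10 was -0.17 with log2 TPM at both pseudocounts and -0.16 among R2 libraries. Adam9 was 0.09 with log2 TPM, 0.06 with the GC trend removed, 0.11 with the replicate block and the GC trend removed, 0.04 among R2 libraries and -0.18 to 0.05 with 1 library left out. Adam7 was 0.09 with the replicate block and the GC trend removed. Adamts1 was -0.51 with voom, -0.26 with the replicate block, -0.22 with the block and the GC trend removed, -0.31 with the label as a covariate, -0.99 among R1 libraries and -0.46 to 0.37 with 1 library left out. Adamts3 was 0.61 among R2 libraries and -1.15 to 0.08 with 1 library left out. Adamtsl2 was -0.25 among R1 libraries and -0.0039 to 1.12 with 1 library left out. The causes were not tested.

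A minimum of 10 counts in every library removed Adam28, Adamts4 and Adamtsl2 among others. At this depth, members under about 3 CPM had standard errors near or above 1 on the log2 scale, so differences of 2-fold in them were not detectable.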
